A study of Mus musculus with 45 samples.

Results

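The 9 genes Shh, Ntn1, Foxa1, Foxa2, Nkx2-2, Nkx2-9, Olig2, Nkx6-1 and Nkx6-2, which mark the floor plate and the ventral progenitors of the neural tube, were followed in mouse neuroepithelial organoids. They were chosen by symbol, as the rows of the deposited count table whose Ensembl identifiers carry these names, and make up 9 of 54532 genes in the table. The organoids came from R1, a wild-type mouse embryonic stem cell line, grown from single cells in Matrigel in N2B27, a serum-free neural medium, which all groups shared. Samples were taken on day 2, just before the treatment, and 7 times after it (8, 18 and 30 h after day 2, and then at 42, 54, 66 and 78 h), either untreated or with 250 nM all-trans retinoic acid (RA). Each of the 15 conditions had 3 biological replicates, giving 3 day 2, 21 untreated and 21 RA-treated RNAseq libraries. The sample labels' protocol gives the dose in µM and lists partly different times, and the dose and times of the series description and the sample titles are used here. R1 is a single line, so the replicates are described as cultures of the same line, and the p-values measure the spread between such cultures. Some libraries differed in Y-linked genes, as given below, and whether all cultures shared a genotype was not tested. The p-values of comparisons with 8 h or 30 h libraries include this difference.

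In the vertebrate neural tube, the floor plate is the strip of cells at the ventral midline that secretes Sonic hedgehog, encoded by Shh. Hedgehog is known to specify the progenitor domains next to it: the p3 domain, marked by Nkx2-2 and Nkx2-9, the pMN domain, marked by Olig2, from which motor neurons arise, and a wider ventral region marked by Nkx6-1 and Nkx6-2. Foxa1 and Foxa2, forkhead transcription factors, act in the floor plate and also in endoderm and notochord, and Ntn1 encodes netrin 1, a secreted cue that guides commissural axons.

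The 9 genes lie on 6 chromosomes of GRCm38, by the GENCODE M21 annotation. Shh (ENSMUSG00000002633) is at chr5:28456815-28467256 on the minus strand, Ntn1 (ENSMUSG00000020902) at chr11:68209364-68400823 on the minus strand, Foxa1 (ENSMUSG00000035451) at chr12:57540628-57546916 on the minus strand and Foxa2 (ENSMUSG00000037025) at chr2:148042877-148046969 on the minus strand. Nkx2-2 (ENSMUSG00000027434) is at chr2:147177546-147194243, Nkx2-9 (ENSMUSG00000058669) at chr12:56611389-56613284, Nkx6-1 (ENSMUSG00000035187) at chr5:101658139-101664996 and Nkx6-2 (ENSMUSG00000041309) at chr7:139579376-139582797, all on the minus strand, and Olig2 (ENSMUSG00000039830) is at chr16:91225457-91228677 on the plus strand. Foxa2 and Nkx2-2 are 848.6 kb apart, and Foxa1 and Nkx2-9 are 927.3 kb apart. All 9 are protein-coding, and values refer to reads over their annotated exons.

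The promoter windows of members that moved together were read from RefSeq on GRCm38.p6, as the 250 bases before the start site, which were found for 7 of the 9 genes, the exceptions being Shh and Ntn1. They were searched on both strands for cores of the Gli motif (CCACCCA), through which Hedgehog acts, the Foxa motif (TGTTTAC) and the Nkx2 motif (CACTTGA). Direct repeats of GNTCA with 5 or with 2 bases between them were searched as well. Their spacing was counted between these short cores and not between the full repeated units of the retinoic acid response element. The search therefore does not cover that element. Of 32851 windows of this length in the table, 8.11% held the Gli core, 3.17% the Foxa core and 2.68% the Nkx2 core. The GNTCA repeat with 5 bases between was in 0.697% of them and that with 2 in 1.01%. Nkx2-9 and Olig2 held the Gli core, Foxa1 the Foxa core and Nkx2-2 the Nkx2 core, once each. None of the 7 windows held either GNTCA repeat. Whole windows are shown for Foxa2, whose onset with RA depended on the rule used, and for Nkx2-9, which fell in untreated organoids, and neither overlaps an annotated exon. The Foxa2 window belongs to the RefSeq start that coincides with the annotated end of the gene, 1 of 3 starts in the table. For Olig2, Foxa1 and Nkx2-2 the 30 bases around the match are shown, since these windows reach into annotated exons. Their RefSeq starts lie inside the gene, 93, 805 and 7841 bases from its annotated start. That of Nkx6-1 lies 285 bases inside, and all 250 bases of its window are in annotated exons. Capitals mark the match.
Foxa2, minus strand of chr2:148046970-148047219, no match: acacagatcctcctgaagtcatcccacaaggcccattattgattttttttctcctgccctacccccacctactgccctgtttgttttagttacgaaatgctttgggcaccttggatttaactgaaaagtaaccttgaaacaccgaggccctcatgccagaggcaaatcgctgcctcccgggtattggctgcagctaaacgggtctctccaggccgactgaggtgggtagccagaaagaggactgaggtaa
Nkx2-9, minus strand of chr12:56613285-56613534, Gli core starting 207 bases before the start: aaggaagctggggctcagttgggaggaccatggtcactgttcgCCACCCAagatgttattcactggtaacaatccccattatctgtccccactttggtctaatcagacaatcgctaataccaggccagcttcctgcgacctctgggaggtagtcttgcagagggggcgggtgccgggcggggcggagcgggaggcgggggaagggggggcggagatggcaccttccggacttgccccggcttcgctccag
Olig2, plus strand of chr16:91225520-91225549, Gli core starting 17 bases before the start: gtcgctgctgcctCCACCCAgctataaaaa
Foxa1, minus strand of chr12:57546234-57546263, Foxa core on the opposite strand, 141 bases before the start: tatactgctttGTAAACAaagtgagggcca
Nkx2-2, minus strand of chr2:147186581-147186610, Nkx2 core starting 197 bases before the start: ctgtcttcatcCACTTGActcccaagaccc
A match describes these letters and not a bound site, and the absence of one covers only this window.

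Total counts per library lay between 17298632 and 39688686, so that 3 counts, taken as the smallest detected amount, correspond to 0.0756 to 0.173 CPM, the count scaled to the library size. Floors and intervals of this kind cover counting error only. Levels below are CPM after TMM normalization over all 45 libraries. The libraries differed in 4 Y-linked genes (Uty, Kdm5d, Eif2s3y and Ddx3y), whose mean was 1.22 to 3.73 CPM in 6 libraries, namely RA 8 h replicate 3, all untreated 30 h libraries and RA 30 h replicates 1 and 3, and 22.6 to 89.9 CPM in the other 39. RA 8 h replicate 3 and RA 30 h replicate 2 therefore stood apart from the other RA-treated libraries of their time. For members with enough counts, the RA effect at 8 h and 30 h was also tested without the library that stood apart. Results for all other genes at these times are given with all libraries only, and their calls were not tested without these libraries. By the library numbers in the sample titles, 16 libraries are of a later series, among them RA 30 h replicates 2 and 3 and all libraries at 66 h and 78 h. As neural progenitor markers, Sox2 had mean levels of 411 CPM at day 2 and 233 CPM with RA at 78 h, and Nes 29.6 and 408 CPM.

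RA-treated and untreated organoids were first compared at each time, to ask which of the 9 genes respond to RA and when. The count of members higher with RA grew from 1 at 8 h to 8 at 78 h, and no member was called lower with RA at any time. A call required a p under 0.01 after Benjamini-Hochberg adjustment in edgeR's quasi-likelihood test, together with a log2 fold change past 1 in either direction. Of all genes tested, 0.537%, 2.76%, 2.48%, 4.96%, 5.99%, 4.44% and 4.03% were lower with RA at the 7 times. Foxa1 was the single member called at 8 h, where 1.26% of the genes tested were called higher. Foxa1 and Foxa2 were called at 18 h (8.17% of all genes) and Foxa1 and Ntn1 at 30 h (5.98% of all genes). Foxa1, Foxa2 and Nkx2-9 were called at 42 h (7.49% of all genes), joined by Shh and Olig2 at 54 h (7.17%), by Nkx6-1 and Nkx6-2 at 66 h (7.06%) and by Nkx2-2 at 78 h (7.66%). Ntn1 was the only member not called at 78 h. At 8, 18 and 30 h, 4 of the 9 genes had too few counts to be tested (Shh, Nkx6-1, Nkx2-2 and Olig2), as did 3 at 42 h (Shh, Nkx2-2 and Olig2) and Nkx2-2 at 54 h and 66 h. Shh, Olig2 and Nkx2-2 were tested only at times when their RA-treated libraries were high, so that their being called once tested adds nothing to their values. Among members with at least 15 counts over the 6 libraries, the number whose 3 RA-treated libraries all lay above the 3 untreated ones was 1 at 8 h, 4 at 18 h, 7 at 30 h, 5 at 42 h, 7 at 54 h, 9 at 66 h and 9 at 78 h. The share of all genes with at least 15 counts that did so was 15.7%, 27.8%, 24.7%, 28.5%, 28.3%, 26.4% and 26% at these times. Where counted, Shh, Olig2 and Nkx2-2 reached 15 counts only through their RA-treated libraries, as did Nkx6-1 at 18 h and 30 h and Foxa2 at 30 h. Their part in these numbers thus adds nothing to their values. With fewer counts, Shh at 8 h and Olig2 at 18 h were also higher in all RA-treated libraries.

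**Figure D1:**
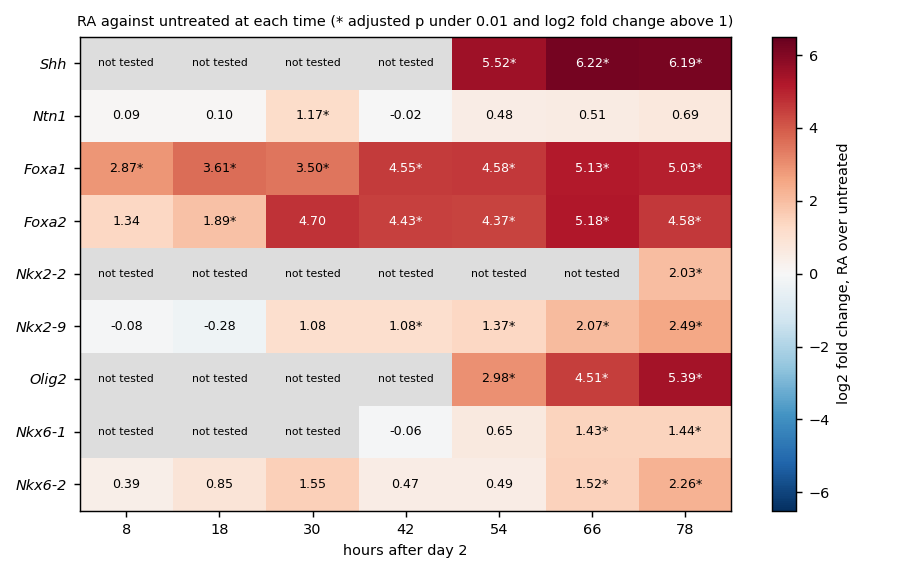
Log2 fold change of RA-treated over untreated organoids for the 9 genes (rows) at 7 times in h after day 2 (columns), with red for higher with RA, grey for genes with too few counts to be tested and an asterisk for genes called higher. Foxa1 is marked at all 7 times, Shh and Olig2 from 54 h, and the values of Ntn1 stay between -0.02 and 1.17.

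Shh, the Hedgehog ligand of the floor plate, was near the floor of detection in untreated organoids at all times and was called higher with RA from 54 h. The day 2 libraries had 0, 0.0503 and 0.0844 CPM, which are 0, 1 and 2 counts. With RA the libraries had 0.326, 0.768 and 0.951 CPM at 42 h, 3.42, 1.31 and 1.29 CPM at 54 h, 4.28, 4.06 and 6.32 CPM at 66 h and 6.68, 8.64 and 7.58 CPM at 78 h. Untreated libraries never passed 0.122 CPM. The arms did not overlap from 42 h on, and the RA-treated mean at 78 h was 7.64 ± 0.98 CPM (SD, n = 3). In untreated organoids at 78 h the mean was 0.102 ± 0.018 CPM (SD, n = 3), with 3 or 4 counts in each library.
From such low counts the size of the change is known within wide bounds. At 54 h there were 164 counts in the RA-treated and 3 in the untreated libraries, a ratio of 50.9 with an exact 95% interval of 17.1 to 249, and at 42 h 51 against 3, a ratio of 18.5 with an interval of 5.97 to 92.5. The mean was 80.3-fold higher with RA at 66 h and 75.2-fold higher at 78 h. In edgeR's quasi-likelihood test the log2 fold change was 5.52 ± 0.72 (SE) at 54 h (adjusted p = 9.2e-05), 6.22 ± 0.39 at 66 h (adjusted p = 9.1e-07) and 6.19 ± 0.24 at 78 h (adjusted p = 7.5e-09). At 8 h the untreated libraries had no count and the RA-treated ones 3, 2 and 3, which is at least 2.44-fold higher against a floor of 3 counts over the group, and at 18 h the arms overlapped, with 1, 0 and 1 counts against 1, 7 and 5. At 30 h the untreated libraries again had no count and the RA-treated ones 4, 24 and 5, which is at least 7.2-fold higher against the same floor and at least 2.93-fold higher without RA 30 h replicate 2, the library with 24.

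Ntn1 was abundant in all libraries and was called at a single time, with 67.7, 68.7 and 66.8 CPM at day 2. At 30 h the untreated libraries had 37.3, 37.9 and 34 CPM and the RA-treated ones 89.7, 82 and 77 CPM, with no overlap. This was the only time at which Ntn1 was called, with a log2 fold change of 1.17 ± 0.1 (adjusted p = 0.00024 in edgeR) and 1.18 ± 0.08 (adjusted p = 3.7e-10) without RA 30 h replicate 2. At 42 h the untreated libraries had 77, 110 and 95.9 CPM and the RA-treated ones 97.4, 97 and 86.8 CPM, and the arms overlapped, with a log2 fold change of -0.02 ± 0.1 (adjusted p = 0.91). At 78 h the untreated libraries had 118, 130 and 138 CPM and the RA-treated ones 161, 206 and 255 CPM. All RA-treated libraries were above the untreated ones at 54, 66 and 78 h, by log2 fold changes of 0.48 ± 0.14, 0.51 ± 0.07 and 0.69 ± 0.13 (adjusted p = 0.017, 0.0003 and 0.001 in edgeR), all under the minimum of 1. The largest log2 fold change of Ntn1 was thus at 30 h, where its untreated mean was at its lowest. At that time all untreated libraries had low levels of Y-linked genes, and the part of this difference in the low mean was not tested.

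Foxa1 was the only one of the 9 called at 8 h with all libraries, while Foxa2 was called there as well without RA 8 h replicate 3. The day 2 libraries had 0.798, 0.955 and 0.76 CPM, and untreated libraries stayed between 0.305 and 1.8 CPM at all times. With RA the libraries had 8.87, 7.56 and 12.2 CPM at 8 h, 11.3, 11.1 and 11.1 CPM at 18 h and 4.42, 13.1 and 3.69 CPM at 30 h. No RA-treated library overlapped the untreated ones of its time. The RA-treated means were 12.3, 14.1 and 14.6 CPM at 42, 54 and 78 h, so that 65.2% of the highest mean had been reached at 8 h. The mean was 7.33-fold higher with RA at 8 h and 32.3-fold higher at 78 h.
In edgeR's quasi-likelihood test the log2 fold change of Foxa1 was 2.87 ± 0.29 at 8 h (adjusted p = 0.0015) and 2.65 ± 0.21 (adjusted p = 7.3e-08) without RA 8 h replicate 3. The call at 8 h was lost when untreated replicate 1 (adjusted p = 0.015 in edgeR) or 2 (0.018) was left out. At 30 h it was 3.5 ± 0.61 (adjusted p = 0.0054) and 2.68 ± 0.29 (adjusted p = 3.7e-07) without RA 30 h replicate 2. This call was lost when any of untreated replicates 1, 2 and 3 (adjusted p = 0.034, 0.032 and 0.022 in edgeR) or RA replicate 1 (0.01) was left out, each of which leaves replicate 2 in. From 42 h to 78 h the log2 fold change lay between 4.55 and 5.13, with adjusted p of at most 1.2e-07 in edgeR.

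Foxa2, the paralogue that is known to be required for the floor plate, was first called at 18 h with all libraries. At day 2 it had 0.462, 0.653 and 1.05 CPM, and untreated libraries stayed between 0.0749 and 1.03 CPM. With RA the libraries had 1.83, 2.28 and 0.339 CPM at 8 h, 1.98, 2.83 and 1.99 CPM at 18 h and 2.32, 9.63 and 1.25 CPM at 30 h. At 8 h RA replicate 3 was below all untreated libraries while the other two were above, and at 30 h RA replicate 2 was far above the other two. The RA-treated libraries then had 10.2, 8.02 and 7.73 CPM at 42 h and 13.4, 13.1 and 13.6 CPM at 54 h, the highest mean, and remained at 10.1 to 13.1 CPM at 66 h and 78 h.
The log2 fold change of Foxa2 was 1.34 ± 0.61 at 8 h (adjusted p = 0.2 in edgeR) and 1.78 ± 0.32 (adjusted p = 0.00046) without RA 8 h replicate 3. It was 1.89 ± 0.27 at 18 h (adjusted p = 6.8e-05 in edgeR), where the arms did not overlap. At 30 h it was 4.7 ± 0.97 (adjusted p = 0.011 in edgeR), short of the threshold, but 3.41 ± 0.49 (adjusted p = 1.1e-05) without RA 30 h replicate 2. Among libraries of the earlier series alone it was 3.79, with RA 30 h replicate 1 as the single RA-treated library, so that no spread between RA-treated cultures entered it. In DESeq2 with all libraries it was 4.69 (adjusted p = 5.6e-07). From 42 h to 78 h the log2 fold change lay between 4.37 and 5.18 (adjusted p of at most 1.4e-07 in edgeR). The plot of single libraries at 8 h and 30 h shows both libraries that stood apart. In bulk RNA, fewer cells that express a gene and less RNA per cell cannot be told apart, here and for all genes below.

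**Figure D2:**
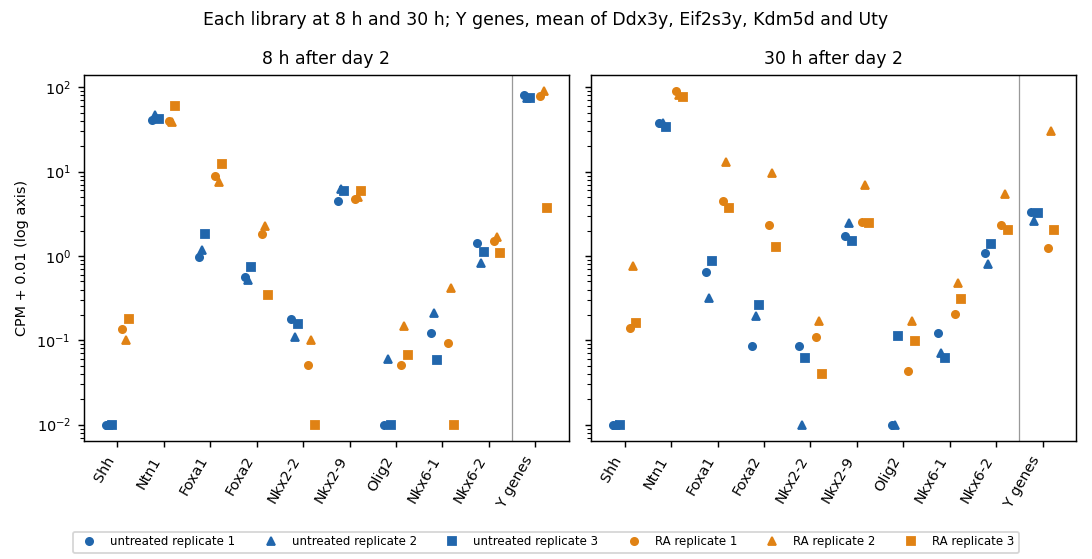
CPM + 0.01 on a log axis for the 9 genes and for the mean of 4 Y-chromosome genes in each of 3 untreated (blue) and 3 RA-treated (orange) libraries at 8 h (left) and 30 h (right), with marker shapes for replicate numbers. RA 30 h replicate 2 is the highest library for Shh, Foxa1, Foxa2, Nkx2-2, Nkx2-9, Olig2, Nkx6-1 and Nkx6-2 and the only one at 30 h with Y-chromosome genes above 22 CPM, and RA 8 h replicate 3 is the lowest for Foxa2 and the only one at 8 h with Y-chromosome genes below 4 CPM.

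Nkx2-2, the homeobox gene that defines the p3 domain, stayed close to the floor of detection. Its libraries had 0 to 12 counts at all times up to 66 h. At 78 h the untreated libraries had 0.179, 0.0868 and 0.108 CPM (5, 3 and 4 counts) and the RA-treated ones 0.37, 0.68 and 0.489 CPM (13, 20 and 14 counts). The arms did not overlap, and the mean was 4.11-fold higher with RA. The log2 fold change was 2.03 ± 0.45 (adjusted p = 0.0034, edgeR's quasi-likelihood test). This call did not hold in DESeq2 (2.05, adjusted p = 0.012), nor without untreated replicate 2 (1.82, 0.022 in edgeR), untreated replicate 3 (1.93, 0.017) or RA replicate 2 (1.78, 0.022).

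Nkx2-9, a relative of Nkx2-2 that is expressed in the same domain, took another course, since it was present at day 2, with 7.48, 7.29 and 7.38 CPM, and fell in untreated organoids. Untreated libraries had 3.43, 4.37 and 3.26 CPM at 18 h, 1.96, 1.65 and 2.16 CPM at 42 h and 0.932, 1.68 and 1.03 CPM at 78 h. With RA the libraries had 2.59, 3.16 and 3.25 CPM at 18 h, 3.35, 3.72 and 5.15 CPM at 42 h and 6.94, 6.74 and 6.95 CPM at 78 h. Both arms were thus below day 2 at 18 h, and at 78 h the RA-treated libraries were near the level of day 2 and the untreated ones were not. The difference between the arms reached 5.67-fold at 78 h.
At 18 h the log2 fold change was -0.28 ± 0.17 (adjusted p = 0.2, edgeR's quasi-likelihood test), with every RA-treated library slightly below every untreated one. At 30 h RA replicate 2 had 6.98 CPM beside 2.55 and 2.47 CPM in the other RA-treated libraries, and the log2 fold change was 1.08 ± 0.46 (adjusted p = 0.12 in edgeR) and 0.42 ± 0.25 (adjusted p = 0.17) without it. It was 1.08 ± 0.21 at 42 h (adjusted p = 0.0017 in edgeR), just past the minimum of 1, and fell to 0.97 without untreated replicate 2 and 0.87 without RA replicate 3. At 54, 66 and 78 h it was 1.37 ± 0.23, 2.07 ± 0.23 and 2.49 ± 0.2 (adjusted p = 0.00047, 5.8e-05 and 1.7e-06 in edgeR).

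Olig2, the basic helix-loop-helix factor of motor neuron progenitors, was at or near 0 up to 30 h in both arms, with at most 5 counts in a library. At 18 h the untreated libraries had 0, 2 and 3 counts and the RA-treated ones 2, 4 and 3, without overlap in CPM, and at 30 h the arms overlapped. With RA the libraries had 0.651, 0.115 and 0.357 CPM at 42 h, 0.576, 1.05 and 0.92 CPM at 54 h, 2.31, 2.39 and 2.55 CPM at 66 h and 4.15, 5.17 and 8.95 CPM at 78 h. No untreated library passed 0.232 CPM at any time. The arms did not overlap from 42 h on, and the mean was 8.23-fold higher with RA at 54 h, 23.8-fold at 66 h and 44.4-fold at 78 h. In edgeR's quasi-likelihood test the log2 fold change was 2.98 ± 0.52 at 54 h (adjusted p = 0.00068), 4.51 ± 0.3 at 66 h (adjusted p = 1.4e-06) and 5.39 ± 0.42 at 78 h (adjusted p = 1.6e-06).

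Nkx6-1, which is known to promote motor neuron identity, rose in both arms, and further with RA. The day 2 libraries had 0.084, 0.101 and 0.127 CPM, or 2 to 3 counts. At 42 h the untreated libraries had 0.938, 1.61 and 1.46 CPM and the RA-treated ones 1.63, 1.15 and 1.11 CPM. At 54 h the arms still overlapped, with 1.73, 3.89 and 3.83 CPM untreated and 7.29, 4.66 and 3.27 CPM with RA. They had separated by 66 h, with 4.45, 4.53 and 3.42 CPM untreated and 10.3, 10.3 and 13.4 CPM with RA, and at 78 h the values were 6.27, 6.48 and 5.45 CPM and 12.4, 16.6 and 20.4 CPM. The log2 fold change was -0.06 ± 0.28 at 42 h (adjusted p = 0.87 in edgeR) and 0.65 ± 0.33 at 54 h (adjusted p = 0.12), then 1.43 ± 0.15 at 66 h (adjusted p = 3.4e-05) and 1.44 ± 0.16 at 78 h (adjusted p = 3.2e-05). Among the members tested, Nkx6-1 was the only one called higher than at day 2 in the absence of RA. Shh, Nkx2-2 and Olig2 had too few counts for that test at all times.

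Nkx6-2, its paralogue, was present at a low level throughout and rose with RA at the last times. At day 2 it had 0.672, 1 and 1.14 CPM. At 66 h the untreated libraries had 1.5, 1.04 and 1.11 CPM and the RA-treated ones 3.24, 3.11 and 4.35 CPM, and at 78 h the values were 1.72, 1.45 and 0.949 CPM and 4.46, 7.04 and 8.14 CPM. The arms did not overlap at either time, and the mean was 4.77-fold higher with RA at 78 h. The log2 fold change was 1.52 ± 0.21 at 66 h (adjusted p = 0.00022 in edgeR) and 2.26 ± 0.26 at 78 h (adjusted p = 3.5e-05). At 18 h it was 0.85 ± 0.23 (adjusted p = 0.0064 in edgeR), under the minimum of 1. At 30 h RA replicate 2 had 5.37 CPM beside 2.32 and 2.02 CPM, and the log2 fold change was 1.55 ± 0.44 (adjusted p = 0.036 in edgeR) and 0.96 ± 0.29 (adjusted p = 0.0087) without it, which was not called in either case.

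**Figure D3:**
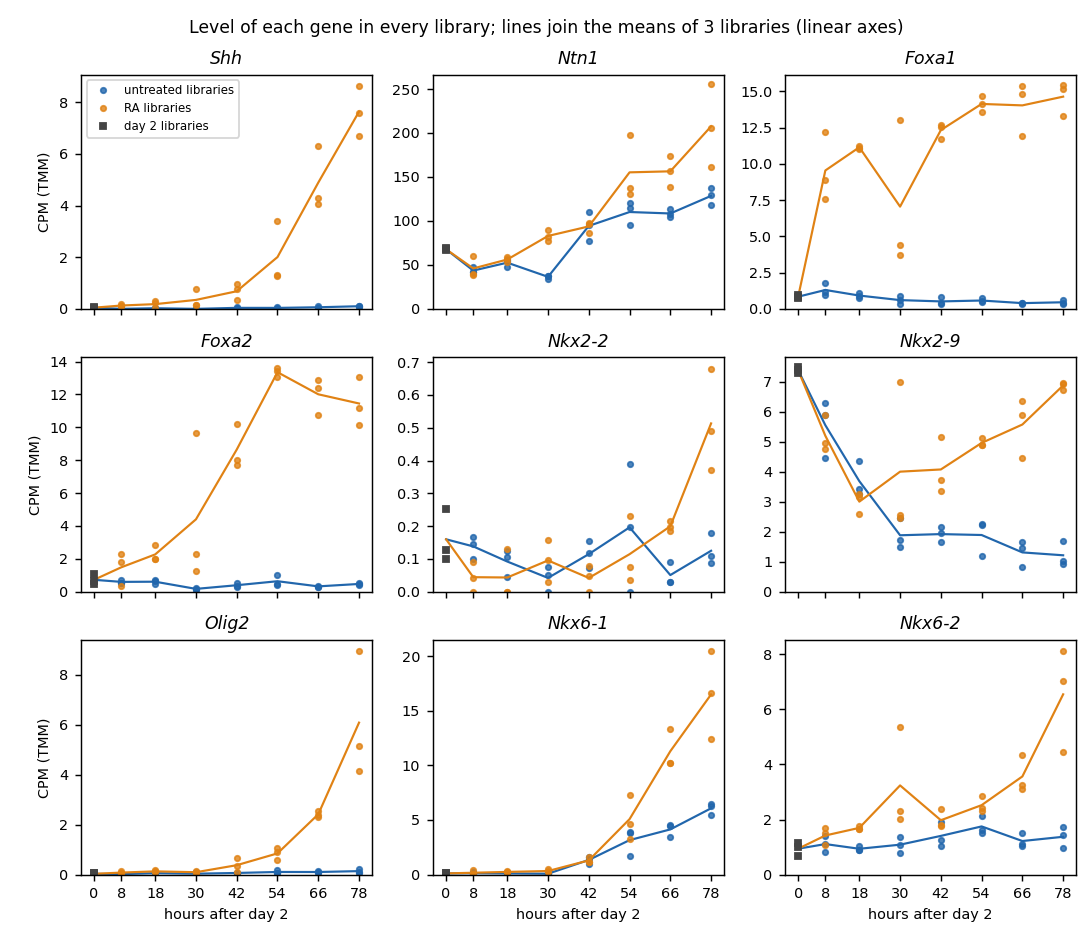
CPM after TMM normalization (linear axes from 0) against h after day 2 for the 9 genes in all 45 libraries, with squares for day 2, blue points for untreated and orange points for RA-treated libraries and lines through the means of 3 libraries. Foxa1 is high from 8 h with RA, Foxa2 reaches its highest mean at 54 h, Shh and Olig2 are highest at 78 h, Nkx6-1 rises in both arms, and Nkx2-9 falls in both arms and recovers with RA.

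Each arm was next compared with day 2, to separate a rise with RA from a fall without it. These comparisons share the day 2 libraries. Without RA, Shh, Nkx2-2 and Olig2 had too few counts to be tested at any time, and Nkx6-1 at 8, 18 and 30 h. With RA, Nkx6-1 was tested from 42 h, Shh and Olig2 from 54 h and Nkx2-2 at 78 h. These genes were tested only at times when the later libraries were high. Their being called against day 2 thus adds nothing to their values. In untreated organoids 1 member, Nkx6-1, rose and 1, Nkx2-9, fell at each of the times from 42 h to 78 h. Genes called higher made up 13.2%, 15%, 18.2% and 20.3% of all genes at these times, and genes called lower 8.56%, 11%, 12.6% and 13.6%. The log2 fold change of Nkx6-1 against day 2 was 3.66 ± 0.46 at 42 h (adjusted p = 5.9e-06 in edgeR) and 5.85 ± 0.28 at 78 h (adjusted p = 1.3e-11). Nkx2-9 fell by 1.96 on the log2 scale at 30 h (adjusted p = 2.5e-08 in edgeR) and by 2.55 at 78 h (adjusted p = 4.8e-09). At 30 h Foxa2 was also lower than at day 2 (-2.1 ± 0.54, adjusted p = 0.0021 in edgeR), so that 2 members were lower there (10.7% of all genes). That is the time at which all untreated libraries had low levels of Y-chromosome genes. The call of Foxa2 was lost without day 2 replicate 3, untreated 30 h replicate 1 or untreated 30 h replicate 2. No member was called against day 2 in untreated organoids at 8 h (0.409% of all genes higher and 0.179% lower) or 18 h (3.2% higher and 1.35% lower).

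With RA, Foxa1 was higher than at day 2 at each time, as the single member called higher at 8 h (2.65% of all genes) and at 30 h (15.9%), and together with Foxa2 at 18 h (14.5%). The count at 30 h was 0 without any single day 2 library and 3 without RA 30 h replicate 2 or 3, and no member was lower there (8.84% of all genes). At 42 h Foxa1, Foxa2, Nkx6-1 and Nkx6-2 were higher than at day 2 (19.8% of all genes). At 54 h (20.6%) and 66 h (21.7%), 7 members were higher, namely these 4 with Shh, Olig2 and Ntn1, and at 78 h 8 were (22.9%), now with Nkx2-2. Nkx2-9 was the exception, 1.29 lower on the log2 scale at 18 h than at day 2 (adjusted p = 7.1e-07 in edgeR, with 5.71% of all genes lower) and at -0.07 ± 0.12 at 78 h (adjusted p = 0.57). Ntn1 was above day 2 by 1.64 ± 0.13 at 78 h with RA (adjusted p = 1.1e-07 in edgeR) and by 0.97 ± 0.06 without it (adjusted p = 3.6e-10). The rise of Nkx6-1 against day 2 at 42 h was 3.66 without and 3.59 with RA.

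The order of onset was then read from the calls. Onset was the first time at which a gene was called higher with RA than without and called so again at the next time, or called at 78 h. Foxa1 had its onset at 8 h (42 h, as for Foxa2, when tested against a log2 fold change of 1 with glmTreat), followed by Foxa2 and Nkx2-9 at 42 h, Shh and Olig2 at 54 h, Nkx6-1 and Nkx6-2 at 66 h and Nkx2-2 at 78 h. Ntn1 had no onset by this rule, since its call at 30 h was not repeated at 42 h. The place of Foxa2 depended on the rule and on 2 libraries. Its onset was 18 h with DESeq2 or when the first call alone was taken, and 8 h without RA 8 h replicate 3 and RA 30 h replicate 2. Shh kept 54 h, Olig2 54 h and Nkx2-9 42 h under these changes. For Shh and Olig2 the onset is also the first time with enough counts for a test, and the libraries of both arms did not overlap at some earlier times, namely 8, 30 and 42 h for Shh and 18 and 42 h for Olig2. Nkx6-1 and Nkx6-2 had their onset at 42 h when set against day 2 instead of untreated organoids, which for Nkx6-1 was a rise that the untreated organoids had as well.
As a share of the highest mean with RA, Foxa1 stood at 84.2%, Foxa2 at 64.7%, Shh at 8.93%, Nkx6-1 at 7.86% and Olig2 at 6.15% at 42 h. At 66 h Shh stood at 64.0%, Nkx6-1 at 68.5% and Olig2 at 39.7%. The forkhead genes were thus near their plateau at 54 h, when the libraries of Shh spanned 16.9% to 44.7% and those of Olig2 9.46% to 17.2% of the highest mean.

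**Figure D4:**
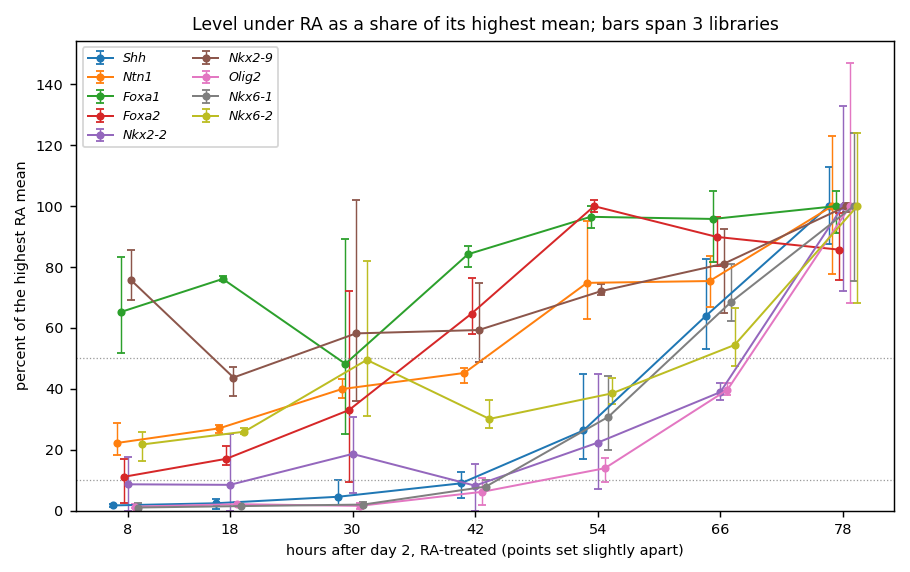
Mean level with RA as a percent of the gene's highest RA-treated mean (linear axis) against h after day 2, with bars from the lowest to the highest of 3 libraries and dotted lines at 10% and 50%. Foxa1 is above 50% at 8 h and Foxa2 from 42 h, whereas Shh and Nkx6-1 pass 50% at 66 h and Olig2 and Nkx2-2 at 78 h, and the widest bars of Foxa1, Foxa2 and Nkx2-9 are at 30 h and that of Nkx6-2 at 78 h.

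Between neighbouring times with RA, few single steps were large enough to be called. Nkx6-1 rose from 42 h to 54 h, by 1.97 ± 0.32 on the log2 scale (adjusted p = 0.0054, edgeR's quasi-likelihood test), when 0.354% of all genes were called higher. Olig2 rose from 54 h to 66 h, by 1.48 ± 0.24 (adjusted p = 0.0085 in edgeR), when 0.575% were. No member was called in the step from 30 h to 42 h (0.101% of all genes), and 3 were without RA 30 h replicate 2. The call of Nkx6-1 was lost without RA 42 h replicate 1, 2 or 3 or RA 54 h replicate 2, and the count at 66 h was 0 without RA 54 h replicate 2 or 3 or any single RA 66 h library and 3 without RA 54 h replicate 1. Shh rose by 1.51 ± 0.49 from 42 h to 54 h and 1.27 ± 0.37 from 54 h to 66 h (adjusted p = 0.056 at both steps in edgeR), short of the threshold. All RA 54 h libraries are of the earlier series and all RA 66 h libraries of the later one. Time and library series cannot be told apart in the step from 54 h to 66 h. Foxa1 had no called step after 8 h. Foxa2 moved by 0.63 ± 0.12 from 42 h to 54 h (adjusted p = 0.0089 in edgeR), under the minimum of 1.

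Whether the RA effect itself changed over time was tested as an interaction over 12 libraries, at an adjusted p under 0.01. From 18 h to 42 h the effect on Foxa2 grew by 2.57 ± 0.38 on the log2 scale (adjusted p = 0.00014 in edgeR) and that on Nkx2-9 by 1.38 ± 0.28 (adjusted p = 0.0016), while 8.26% of all genes had a larger effect. The effect on Foxa1 grew by 0.97 ± 0.32 (adjusted p = 0.032 in edgeR), short of the threshold, and by 1.55 (adjusted p = 0.00098) without untreated 42 h replicate 3. In one edgeR fit of all 45 libraries the values of Foxa2 and Nkx2-9 were 2.56 and 1.38 and no longer called (adjusted p = 0.016 and 0.015). From 42 h to 78 h the effect grew for Nkx6-1 (1.49 ± 0.33, adjusted p = 0.0042 in edgeR), Nkx6-2 (1.77 ± 0.41, adjusted p = 0.0054) and Nkx2-9 (1.39 ± 0.3, adjusted p = 0.0038), with 5.81% of all genes. It moved by 0.46 ± 0.38 for Foxa1 and 0.13 ± 0.36 for Foxa2 (adjusted p = 0.43 and 0.84 in edgeR). For Shh and Olig2 the differences were 2.12 ± 1.2 and 2.95 ± 1.31 (adjusted p = 0.24 and 0.13 in edgeR), with at most 2 counts in each untreated library at 42 h. Without RA 42 h replicate 2, 0 of the 3 calls of the second interval remained, and without untreated 42 h replicate 2, untreated 42 h replicate 3, RA 42 h replicate 3 or untreated 78 h replicate 3 the count was 1.

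Levels of different genes were compared per kb of merged exons, with RA at 78 h. Ntn1 had 33.1 ± 7.52 CPM per kb (SD, n = 3) and stood above all others without overlap. It was followed by Nkx2-9 (5.44 ± 0.0964), Nkx6-1 (5.26 ± 1.27), Foxa2 (4.83 ± 0.631), Foxa1 (4.4 ± 0.342), Nkx6-2 (3.43 ± 0.99), Shh (2.68 ± 0.344) and Olig2 (2.41 ± 0.998), in CPM per kb. Each gene from Nkx2-9 to Shh overlapped the next in this order in its 3 libraries, so that these neighbours did not differ beyond their spread. Nkx2-2, at 0.179 ± 0.0545 CPM per kb, was below Olig2 without overlap. The p3 gene Nkx2-2 was thus the lowest of the 9, while the libraries of Nkx2-9, the other p3 gene, lay within the range of Nkx6-1.

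Across the 15 condition means, the genes most like Shh, Foxa2 and Olig2 were sought among 16012 genes that reached 1 CPM in some condition, by Pearson's r of log2(mean CPM + 1). The 15 points are means along 1 time course, and r is given as a description. For Shh these were Vtn (r = 0.992), Hand1 (0.991), Fam90a1b (0.99), 9030622O22Rik (0.989) and Chst13 (0.989). Vtn, which encodes vitronectin, went from 0 CPM at day 2 to 13.2 CPM with RA at 78 h and 0.325 CPM without. For Foxa2 they were Lgals1 (0.977), S100a13 (0.977), Rassf10 (0.977), Pxn (0.974) and Gm10830 (0.974), of which Lgals1, which encodes galectin 1, had 35.7 CPM at day 2 and 149 CPM with RA at 78 h. For Olig2 they were Il2rb (0.997), Sst (0.996), Pcdh12 (0.992), 1700086L19Rik (0.991) and C1ql2 (0.991), of which Sst, which encodes somatostatin, had 16.6 CPM with RA at 78 h. Among the members, Shh and Olig2 had the highest r (0.98), then Ntn1 and Nkx6-1 (0.93) and Foxa1 and Foxa2 (0.91), and Nkx2-9 had an r of -0.03 with Nkx6-1.

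Genes next to the members were looked at because reads from overlapping genes on opposite strands cannot be told apart where counting does not use the strand, and the strand setting of the counting is not given in the sources used here. Shh is overlapped by 9530036O11Rik and Gm26894, with at most 7 counts each in any library. Nkx2-2 is overlapped by Nkx2-2os, with at most 2 counts. Nkx6-2 is overlapped on the opposite strand by exons of Inpp5a, a phosphatase gene with up to 1339 counts and 27.2 CPM without and 31.8 CPM with RA at 78 h, so that the level of Nkx6-2 is uncertain. Near Nkx2-9, Nkx2-1 (74.5 kb away) had 0.0119 CPM without and 0.152 CPM with RA at 78 h, and Pax9 (78.5 kb away) 0.365 and 3.34 CPM. Olig1, 41.1 kb from Olig2, had 0.178 and 0.786 CPM, and Ttc6, 17.2 kb from Foxa1, 0.16 and 1.4 CPM.

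Other genes of the floor plate, listed by symbol, moved in both directions with RA. Of 11 genes, 0 were called at 8 h, 3 were higher and 2 lower at 18 h, 2 higher and 1 lower at 30 h, 4 higher and 3 lower at 42 h, and 6 higher and 1 lower at 78 h, to be read against the shares of all genes given above. The median log2 fold change of the 10 genes tested at 78 h was 1.76, against 0.0 over all genes. Slit1 and Slit2, which encode repellents of commissural axons, had 13.3 and 11.5 CPM without and 59.7 and 48.5 CPM with RA at 78 h (log2 fold change 2.16 ± 0.09 and 2.08 ± 0.09, adjusted p = 8.8e-09 and 1.2e-08 in edgeR). Lmx1a and Lmx1b, homeobox genes of the midbrain floor plate and of the roof plate, differed by 3.76 ± 0.42 and 1.45 ± 0.14 (adjusted p = 2.6e-05 and 9.8e-06 in edgeR). Sulf1, which encodes a heparan sulfate sulfatase, was the one gene lower with RA at 78 h, by -1.63 ± 0.11 (adjusted p = 5.7e-07 in edgeR), with 243 CPM without and 78.1 CPM with RA. Spon1, which encodes the floor plate protein F-spondin, was lower with RA at 18, 30 and 42 h and had 10.9 CPM without and 17.4 CPM with RA at 78 h, a difference under the minimum. Ferd3l stayed under 0.2 CPM on average at day 2, 18, 42 and 78 h.

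Among the Hedgehog response genes, Hhip was higher with RA at each of the 7 times and Ptch1 at 5. Ptch1, the Hedgehog receptor, had 261 CPM at day 2, when Shh had at most 2 counts in a library, and 102 CPM without and 255 CPM with RA at 42 h, a log2 fold change of 1.31 ± 0.06 (adjusted p = 4.5e-08 in edgeR). Hhip, which encodes a Hedgehog-binding inhibitor, had 2.42 CPM without and 23.7 CPM with RA at 18 h (3.32 ± 0.13, adjusted p = 4.1e-10 in edgeR), when Shh had at most 7 counts in a library. Among 11 genes of Hedgehog reception and transduction, the coreceptor genes Boc, Cdon and Gas1 were higher with RA at 5, 5 and 4 times, and none was called lower at any time.

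Of 12 motor neuron and V3 neuron genes, which lie downstream of pMN and p3, 5 were higher and 2 lower with RA at 78 h, and the median log2 fold change over all 12 was 0.38. Mnx1, a motor neuron homeobox gene, was higher with RA at 6 times, including 18 h (2.59 ± 0.23, adjusted p = 1.3e-06 in edgeR), when Olig2 had at most 4 counts in a library. The list was divided at 54 h, with 4 genes higher and 4 lower with RA. Lower there were Chat and Slc18a3, which encode the synthetic enzyme and the vesicular transporter of acetylcholine, and the homeobox genes Lhx3 and Phox2a. Slc18a3 was higher with RA at 18 h (1.53 ± 0.23, adjusted p = 0.00013 in edgeR) and lower at 42, 54 and 66 h, with 4.39 CPM without and 0.916 CPM with RA at 54 h (-2.27 ± 0.23, adjusted p = 1.5e-05 in edgeR). Neurog2 had 0.766 CPM without and 8.33 CPM with RA at 78 h (3.43 ± 0.19, adjusted p = 1.2e-07 in edgeR). Of 18 genes of intermediate and dorsal progenitors, 9 were higher and 1 lower with RA at 78 h, among them Msx1 (1.04 CPM without and 19.8 CPM with RA) and Dbx1 (20.8 and 48.7 CPM), while Olig3 was lower (33.8 and 15.1 CPM). Otx2, a forebrain and midbrain gene, was lower with RA at all 7 times, with 63.7 CPM without and 6.94 CPM with RA at 78 h.

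Foxa1 and Foxa2 also mark endoderm, so the endoderm and notochord lists were set beside them. Of 10 endoderm markers, 4 were higher with RA at 18 h and 3 at 78 h, and 0 were lower at any time. Their summed level was 4.54 to 5.4 CPM at day 2, 4.78 to 5.19 CPM without and 38.5 to 41.6 CPM with RA at 18 h, and 3.61 to 4.05 CPM without and 13.1 to 14.2 CPM with RA at 78 h. The summed level with RA was lower at 78 h than at 18 h without overlap, while the mean of Foxa2 went from 2.27 to 11.5 CPM. Of the endoderm markers, Sox17 had 8.43 CPM and Gata6 3.46 CPM with RA at 18 h. Foxa3 was called at no time, Ttr was at 0 in all libraries of day 2 and 18 h in both arms, and Apoa1 and Cer1 were at or below 0.387 CPM on average at day 2, 18, 42 and 78 h. The notochord and node markers had a summed level of 7.67 to 9.54 CPM without and 8.79 to 9.59 CPM with RA at 78 h. T was lower with RA at 5 times, at 3.38 CPM without and 0.725 CPM with RA at 78 h, Noto was at most 0.0925 CPM on average at day 2, 18, 42 and 78 h, and Nog was higher with RA at 4 times. The part of other cell types in the levels of Foxa1, Foxa2 and Shh was not tested.

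**Figure D5:**
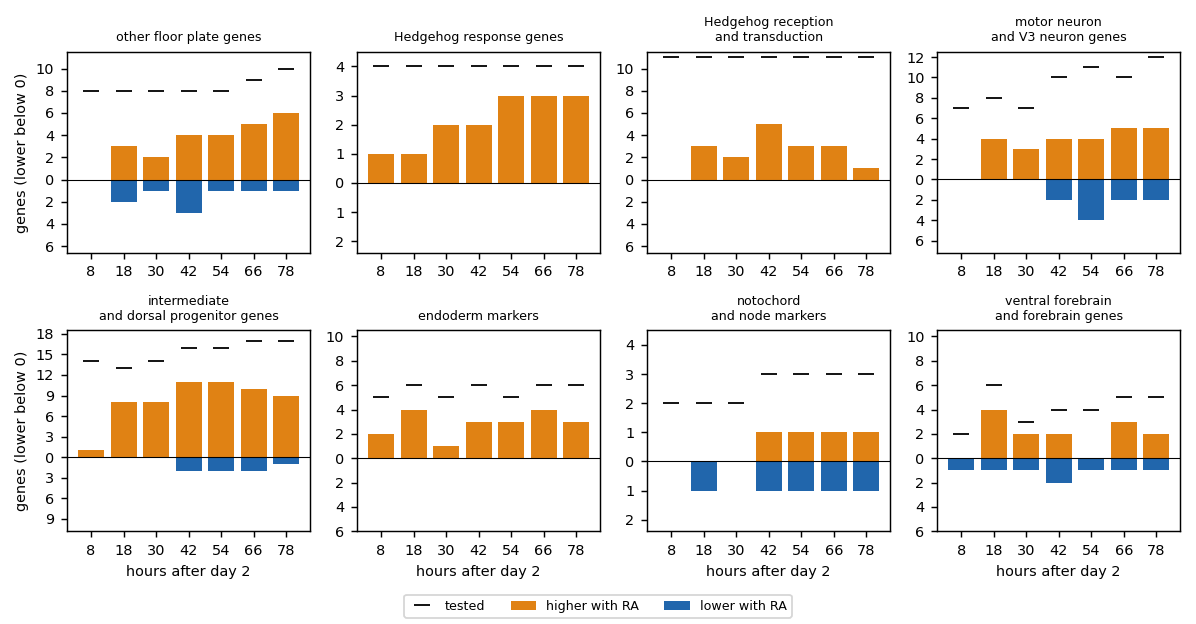
Number of genes of 8 lists called higher (orange, above 0) or lower (blue, below 0) with RA than without at 7 times in h after day 2, with black dashes for the number of genes tested. Intermediate and dorsal progenitor genes have up to 11 higher with RA, other floor plate genes up to 6 and endoderm markers up to 4.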

How the data were processed

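RNAseq libraries were poly(A)-selected and prepared with a directional kit. Reads were trimmed (Trim Galore 0.5.0), cleared of abundant sequences (Bowtie2 2.3.4.1) and aligned to GRCm38 (STAR) by the authors. The deposited values are raw counts of reads for each gene, made with featureCounts (Subread 1.6.2) and neither normalized nor pooled. The strand setting is not given in the sources used here. From these counts, the 6 libraries of a comparison (12 for an interaction) entered a separate fit in edgeR 4.0.16 (R 4.3.3): TMM, filterByExpr (minimum count 10, minimum total count 15), glmQLFit and glmQLFTest, with Benjamini-Hochberg adjustment over all genes tested. The SE is the log2 fold change divided by the square root of F. DESeq2 1.42.0, other thresholds, filters, scalings, a replicate block and each library left out in turn were alternatives. No permutation test was used, since 3 against 3 cannot give p under 0.1.

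Of 54532 genes, 54409 had a symbol. In all 45 replicate pairs the counts differed by more than sampling noise (mean chi-square per gene at least 1.92). Same-numbered libraries of the arms deviated together, with r over 0.1 in each pair, at 66 h only (0.52, 0.2 and 0.25), and the replicate block moved no call between the arms there. On simulated counts for RA against untreated at 78 h, edgeR recovered 100% of genes changed 4-fold and 8-fold among 17039 genes run, with 0 false calls. Only genes with many counts were changed there, and all genes had the same fixed spread between replicates. The result does not cover genes with few counts, such as Nkx2-2, or libraries that stand apart from their group.

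The 9 genes, the gene lists and the tests were chosen with earlier results of these data known. Named outside the 9 were genes of the lists called at 4 or more of the 7 times or defining another tissue, neighbours, and the 5 genes most like Shh, Foxa2 and Olig2. Spon1, Ferd3l, Foxa3, Pax9, Chat, Lhx3 and Phox2a were named after their values were seen. Certain list members are not reported here.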

Additional observations from a re-analysis of the deposited data

Results flagged for a closer look

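For 3 genes the RA effect differed between times in an interaction test (edgeR's quasi-likelihood test, Benjamini-Hochberg adjusted p under 0.01) in a single interval. The effect on Foxa2 was larger at 42 h than at 18 h by 2.57 on the log2 scale (adjusted p = 0.00014). The effects on Nkx6-1 and Nkx6-2 were larger at 78 h than at 42 h, by 1.49 (adjusted p = 0.0042) and 1.77 (adjusted p = 0.0054). For Nkx2-9 it was larger in both intervals, by 1.38 from 18 h to 42 h (adjusted p = 0.0016) and by 1.39 from 42 h to 78 h (adjusted p = 0.0038). Both intervals share the libraries at 42 h. Groups of 3 libraries were too small for a test of single extreme libraries.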

How the results depend on the processing

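Of the counts of members and onset times, 142 values under other settings stayed within 1.5 times the reported value and 38 moved, and with single libraries left out 169 stayed and 41 moved. The cause was not tested where none is given. Members higher with RA numbered 1 at 18 h, 0 at 8 h and 30 h and 3 at 54 h when tested against a log2 fold change of 1 (glmTreat). With at least 10 counts in every library, which removes genes at or near 0 without RA, they were 1 at 30 h, 1 at 42 h, 3 at 54 h and 5 at 78 h. At 30 h the number was 4 with DESeq2 and 4 at an adjusted p under 0.05 with no minimum fold, and one edgeR or DESeq2 fit of all 45 libraries gave 6 at 30 h and 5 at 42 h. The edgeR fit of all libraries gave 1 member higher at 42 h than at 30 h with RA, and 0 and 1 members with a larger RA effect from 18 h to 42 h and from 42 h to 78 h. With the earlier library series only, the steps with RA to 30 h and to 42 h rest on a single RA 30 h library, and no count is given for them.

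Onset was 42 h for Nkx6-1 and Nkx6-2 against day 2. At 10% of the highest mean it was 8 h for Foxa2, Nkx6-2 and Nkx2-9, 30 h for Nkx2-2 and 54 h for Nkx6-1, and at 50% it was 8 h for Nkx2-9, 66 h for Shh and 78 h for Olig2. With glmTreat it was 42 h for Foxa1, 66 h for Nkx2-9 and Olig2 and 78 h for Nkx6-2. No onset was found for Nkx6-1 and Nkx2-2 with glmTreat, for Nkx2-2 with DESeq2 or for Nkx2-9 against day 2, and Ntn1 gained one at 54 h against day 2, at 50% of the highest mean or at an adjusted p under 0.05, at 8 h at 10% of it and at 30 h by the first call. At an adjusted p under 0.05 onset was 18 h for Foxa2 and Nkx6-2. For Foxa2 it was also 18 h with DESeq2 or by the first call alone, and 8 h without RA 8 h replicate 3 and RA 30 h replicate 2 (added after the data were seen, as were the earlier series, the first call and leaving out libraries against day 2).

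With single libraries left out, members higher with RA numbered 0 to 2 at 8 h and 1 to 3 at 30 h. Against day 2, those higher with RA were 1 to 2 at 8 h and 0 to 3 at 30 h, and those lower 0 to 1 at 30 h and 0 to 1 at 42 h. Untreated members against day 2 were 1 to 2 higher at 54 h and 1 to 2 at 78 h, and 0 to 1 lower at 18 h, 1 to 2 at 30 h and 1 to 2 at 66 h. In the steps with RA, 0 to 1 were lower at 30 h, and 0 to 3 higher at 42 h, 0 to 1 at 54 h and 0 to 3 at 66 h. The RA effect grew from 42 h to 78 h for 0 to 4 members.

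Signs turned only for differences near 0 that were not called. With library totals Ntn1 at 42 h became 0.05. With single libraries left out, Ntn1 at 8 h ranged from -0.14 to 0.21, Ntn1 at 42 h from -0.15 to 0.09 (also 0.04), Nkx6-1 at 42 h from -0.27 to 0.07 (also 0.02 and 0.04) and Nkx2-9 at 8 h from -0.21 to 0.02. The change of the RA effect lay between -0.08 and 0.74 for Foxa1 and -0.13 and 0.34 for Foxa2 from 42 h to 78 h, and between -0.23 and 0.05 for Ntn1 from 18 h to 42 h. The replicate block raised Foxa2 at 30 h past the threshold (4.34, adjusted p = 0.0048) and lost the call of Nkx6-2 from 42 h to 78 h (1.75, adjusted p = 0.012, both in edgeR), and changed no other call of a member between the arms. Low counts left Shh and Olig2 untested between the arms before 54 h, Nkx6-1 before 42 h and Nkx2-2 before 78 h, where it was still low.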
